A study of Mus musculus with 4 samples.

Results

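The genes described here are 35 genes of the ATF4 amino acid response and the cytosolic tRNA synthetases, chosen by name, and all 35 had a locus in the deposited table of 23657 named loci. They fall into 7 regulators of the response, 5 enzymes of amino acid and one-carbon synthesis, 5 amino acid transporters and 18 tRNA synthetases. They were measured by RNA sequencing in splenic CD4+ dendritic cells, antigen-presenting cells sorted as CD11c+ I-Ab+ CD4+ CD8-, from mice given either PBS (100 uL) or sheep red blood cells (SRBC, 1000000000 cells) for 1 h. There were 2 libraries after PBS and 2 after SRBC. All mice, controls included, were C57BL/6 and heterozygous for Gpr183, which encodes an oxysterol receptor that positions these cells in the spleen. Ages and sex are not labelled. Nor is it labelled whether replicate libraries stem from different animals, so the p-values cover only variation among the 4 libraries, and part of it may be technical.

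ATF4 is a transcription factor whose protein is made when the initiation factor eIF2 is phosphorylated, as happens when amino acids run short, unfolded proteins gather or heme is lacking. It then switches on genes that import amino acids, make them and load them onto tRNA, together with feedback genes that restore translation. Because much of its control acts on translation, the level of Atf4 mRNA is not a measure of ATF4 protein. Activated dendritic cells also raise amino acid uptake as they begin to make more protein.

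ATF4 and its partner C/EBP proteins bind a composite element whose core was searched as TGATGNAA on both strands of RefSeq promoter windows (GRCm38.p6, 250 bases before to 50 after each start). Of the 25 members with a window, 8 held a match, or 32.0%, against 4.51% of 27025 genes in the table. These 8 were Chac1, Trib3, Asns, Aars, Gars, Iars, Tars and Yars. The stretches below are those that lie before the start, printed because they show the searched core whose carriers are followed through the results, with the match in capitals. In Trib3, Iars and Yars the match did not lie before the start, so no stretch is printed.
Chac1 (chr2:119351023-119351082, plus strand): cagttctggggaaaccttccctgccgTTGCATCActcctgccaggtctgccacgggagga
Asns (chr6:7693210-7693258, minus strand): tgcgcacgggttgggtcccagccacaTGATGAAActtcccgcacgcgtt
Aars (chr8:111033704-111033763, plus strand): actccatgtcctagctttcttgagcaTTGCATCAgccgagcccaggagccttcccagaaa
Gars (chr6:55037945-55038000, plus strand): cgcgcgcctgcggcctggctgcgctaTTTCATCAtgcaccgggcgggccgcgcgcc
Tars (chr15:11399659-11399699, minus strand): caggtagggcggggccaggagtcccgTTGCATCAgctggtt
A match is a description of these letters and not a measured site. Of the 6 members that rose after SRBC, described below, Ddit3, Eprs, Slc3a2 and Slc7a1 had a window and held no match in it, which says nothing of ATF4 at these genes. Rars and Slc1a5 had no window and were not searched. The same holds for Slc7a5, Cars, Hars, Lars, Mars, Nars, Vars and Wars. Of the 8 members that held a match, Chac1, Trib3 and Asns were too low to test, and of the other 5 limma called 0, with 0 at an unadjusted p under 0.05. Over all tested loci 13.5% were called higher and 6.2% lower, or 20.4% and 11.6% at the unadjusted limit. With 5 genes, 0 called cannot be told from these shares.

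Levels are in FPKM, read fragments divided by transcript length and library size, so they can be compared between genes per length. Testing required an FPKM of 1 or more in 2 or more libraries, which 32 of the 35 members and 11020 named loci in all met. Log2 fold changes, always SRBC over PBS and with their SE, were fitted to log2(FPKM + 1), and a gene was called where limma's Benjamini-Hochberg adjusted p over all tested loci was under 0.05. Group values are means ± SD with n = 2.

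Summed FPKM ran from 377167 to 558016 between libraries, and the sources used here give no read totals. Judged by the spacing of low values, the FPKM that 1 fragment adds to a transcript was 0.807, 0.940 and 0.914 times that of PBS library 1 in PBS library 2 and SRBC libraries 1 and 2. The sort genes were present: Itgax stood at 180 and 212 FPKM with PBS, then at 222 and 253 with SRBC, Cd4 lay between 75.8 and 96.4 in all libraries, and Cd8a between 1.20 and 2.63. H2-Ab1, which encodes a chain of the I-Ab protein used in the sort, had 4440 and 3905 FPKM under PBS, against 7751 and 8908 under SRBC. It was called higher, and of the 8 loci found for CD4+ dendritic cell markers Zbtb46 was also higher (38.6 and 47.5, then 70.9 and 80.0) and Clec4a4 lower (3.68 and 7.76, then 2.11 and 1.55). In the authors' deposited table the q was 0.93 for H2-Ab1, 0.19 for Zbtb46 and 0.0010 for Clec4a4. The part of these markers in the results below was not tested. Xist was at 0.210 and 0.327 FPKM in the PBS libraries and at 339 and 306 in the SRBC libraries, while the Y-linked gene Ddx3y measured 17.2 and 20.4, then 0.0307 and 0.00819. The treatment and the sex of the mice therefore cannot be told apart in any comparison below. Summed markers of B, T, NK, plasmacytoid dendritic, neutrophil, macrophage and erythroid cells were each higher in PBS library 1 than in its replicate, and likewise in SRBC library 2. Summed FPKM of 4 neutrophil markers was 57.5 and 6.44 after PBS and 41.3 and 90.5 after SRBC, with 3 called higher and Mpo listed at 0 in PBS library 2, and that of 5 erythroid loci was 65.2 and 12.8, then 114 and 196, with 4 called higher. Summed FPKM of NK markers was 16.0 and 4.39, then 9.14 and 26.2, and of plasmacytoid dendritic cell markers 140 and 51.9, then 60.9 and 101. B cell markers summed to 20.4 to 42.5 and macrophage markers to 134 to 175 across libraries, T cell markers to 7.11 to 17.3 with 1 called higher, and markers of CD8 dendritic cells to 53.4 to 96.0 with 2 called lower. In these bulk samples fewer cells of a type and less RNA per cell cannot be told apart.

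After SRBC, 6 of the 32 tested members rose and 0 fell, or 18.8% higher against 13.5% of all tested loci higher, 6.2% lower and 19.7% in either direction. At an unadjusted p under 0.05, limma gave 10 of the 32 members higher and 0 lower, and 20.4% of all tested loci higher and 11.6% lower. With all named loci tested and no filter on low values, limma called 0 of these genes, and that setting is not repeated for each gene below. The 6 were the amino acid transporters Slc7a1, Slc3a2 and Slc1a5, the stress transcription factor Ddit3 and the synthetases Eprs and Rars. Transporters made up 3 of the 6, with 3 of 5 called, beside 1 of 5 tested regulators, 0 of 4 tested synthesis enzymes and 2 of 18 synthetases. The median log2 fold change of the 32 members was 0.29, beside 0.070 for all tested loci. With upper-quartile scaling, quantile normalization and TPM the members' median was 0.068, 0.12 and -0.11, beside -0.14, -0.039 and -0.33 for all loci, and 13 of the 32 were above 0 with TPM against 26 as deposited. Without PBS library 2 the members' median was 0.30, beside 0.17 for all loci. Both SRBC libraries lay above both PBS libraries for 15 of the 32 members and below for 0, while this held for 34.3% of all tested loci above and 24.7% below. Of the 32, Slc7a1, Slc1a5 and Eprs, or 3, had a q under 0.05 in the authors' deposited table, as 12.5% of the tested loci did.

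The count of members called moved with the scaling and with 1 library. It was 3 with upper-quartile scaling, where 9.27% of all loci were higher, 2 with quantile normalization (8.37%) and 1 with TPM (5.71%), which sets each library to the same summed FPKM. It was 9 without PBS library 1 (10.9%), 6 without PBS library 2 (14.9%), 5 without SRBC library 1 (10.5%) and 2 without SRBC library 2 (6.77%). Of these 7 settings, quantile normalization called 1 member lower with limma, and the others called none lower. Where a library is left out, 1 group has a single library, and the fit takes its variation to equal that of the other group. In these fits limma took each gene's variance from the trend over all tested loci, with no weight on the gene's own spread.

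**Figure D1:**
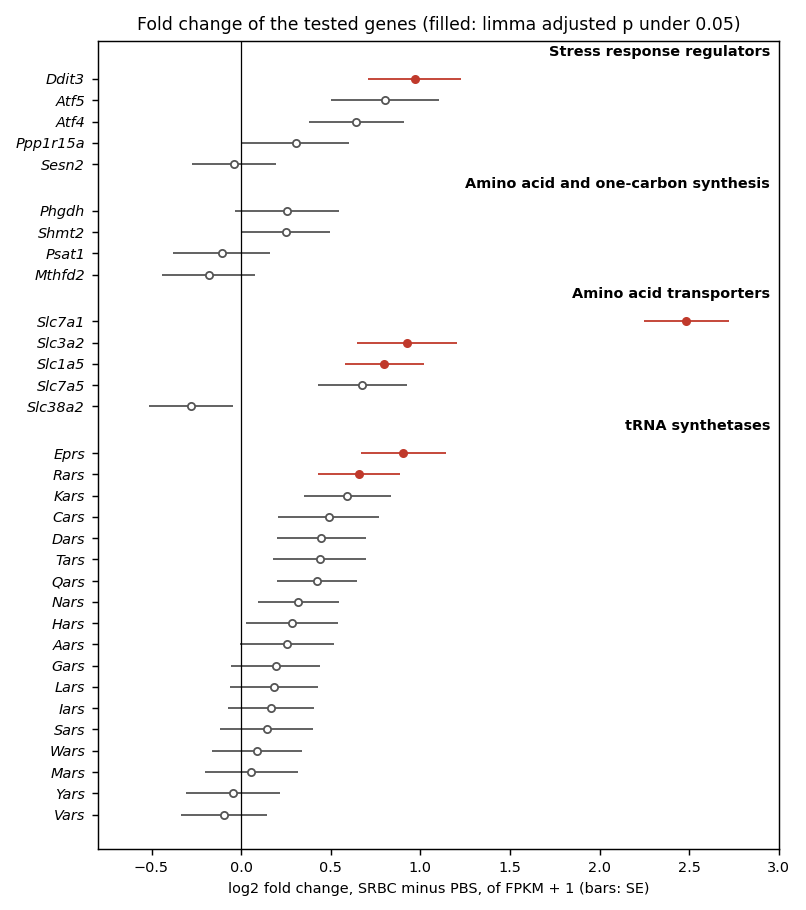
Log2 fold change of the 32 tested genes, SRBC minus PBS, in units of log2(FPKM + 1), with bars of 1 SE, grouped by role; filled red points passed limma at an adjusted p under 0.05 and open points did not. Slc7a1 stands at 2.48, and the other 31 genes lie between -0.28 and 0.97.

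Amino acid transporters carried the highest fold change among the members. Slc7a1, the cationic transporter that imports arginine and lysine (chromosome 5, 148327410 to 148399904, GRCm38), had 5.31 and 6.29 FPKM under PBS, against 38.0 and 35.9 under SRBC. The groups were far apart and each was tight. It rose 6.37-fold (mean 5.80 ± 0.695 with PBS and 36.9 ± 1.53 with SRBC; log2 fold change 2.48 ± 0.24 SE, adjusted p = 1.6e-09), with a q of 0.0010 in the authors' deposited table. The log2 fold change stayed between 2.38 and 2.59 when each library was left out and between 2.16 and 2.47 under the 4 rescalings tried, and it was called in each of these. Only the test of all loci with no filter lost the call (adjusted p = 0.053).

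Slc1a5, a transporter of glutamine and other neutral amino acids (chromosome 7, 16781340 to 16798274), stood at 27.7 and 25.9 FPKM with PBS, then at 46.6 and 48.1 with SRBC. The groups did not overlap. It rose 1.77-fold (mean 26.8 ± 1.22 with PBS and 47.4 ± 1.09 with SRBC; log2 fold change 0.80 ± 0.22 SE, adjusted p = 0.0088). The call was lost without SRBC library 1 or SRBC library 2, where the log2 fold change was 0.82 and 0.78, and with quantile normalization or TPM, where it was 0.41 and 0.38.

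Slc3a2 encodes the heavy chain that brings several light chain transporters, Slc7a5 and Slc7a11 among them, to the cell surface (chromosome 19, 8706882 to 8723369). It was at 97.9 and 36.9 FPKM in the PBS libraries and at 117 and 113 in the SRBC libraries, so the SRBC libraries lay close together while PBS library 1 was 2.65 times PBS library 2. Its log2 fold change was 0.93 ± 0.28 SE (adjusted p = 0.017), or 1.62 without PBS library 1 and 0.23 without PBS library 2 (adjusted p = 0.64). The call was also lost under all 4 rescalings, where the log2 fold change ran from 0.43 to 0.91, and the authors' deposited q was 0.059.

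Slc7a5, the light chain that pairs with Slc3a2 to import leucine and other large neutral amino acids, had 7.83 and 7.18 FPKM under PBS, against 12.2 and 12.9 under SRBC. Its groups did not overlap, and it narrowly missed the threshold (log2 fold change 0.68 ± 0.25 SE, adjusted p = 0.053). Over 17 alternative settings it was called in 6, and its adjusted p ran from 0.033 to 0.46. Slc38a2, a sodium-coupled transporter of small neutral amino acids that ATF4 is known to raise during starvation, stood at 62.7 and 101 FPKM with PBS, then at 60.1 and 70.8 with SRBC. Its libraries overlapped (log2 fold change -0.28, adjusted p = 0.44), and with quantile normalization it was called lower (log2 fold change -0.82, adjusted p = 0.044).

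**Figure D2:**
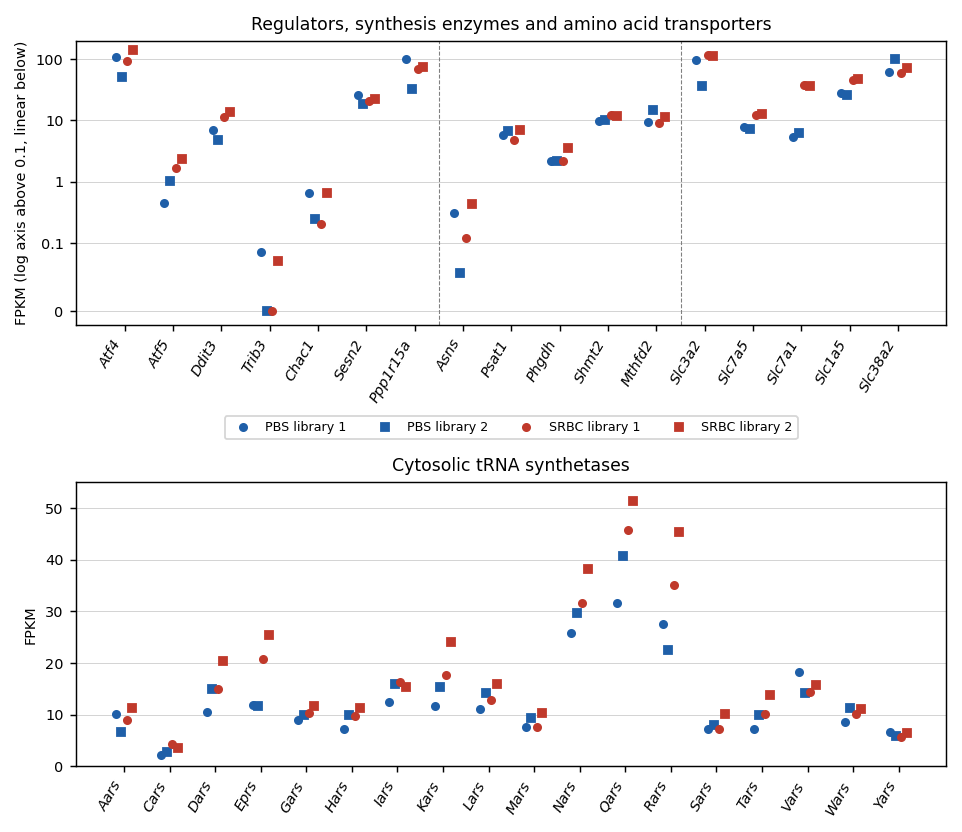
FPKM of the 35 genes in each library, with PBS in blue and SRBC in red, circles for library 1 and squares for library 2; the upper axis is logarithmic above 0.1 and the lower axis is linear. Slc7a1 shows the widest gap between groups, while Atf4, Ppp1r15a and Slc3a2 differ more than 2-fold between the PBS libraries, and Trib3, Chac1 and Asns stay under 1 FPKM.

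Among the regulators, Ddit3 rose. Ddit3 encodes CHOP, a transcription factor induced by ATF4 (chromosome 10, 127290774 to 127296288), and was at 7.05 and 4.88 FPKM in the PBS libraries and at 11.2 and 13.8 in the SRBC libraries. The groups did not overlap, and the mean was 5.96 ± 1.53 with PBS and 12.5 ± 1.78 with SRBC (log2 fold change 0.97 ± 0.26 SE, adjusted p = 0.0077). The call was lost without SRBC library 2 (adjusted p = 0.20) and with upper-quartile, quantile or TPM rescaling, where the log2 fold change was 0.74, 0.93 and 0.61. The 3′ end of Ddit3 overlaps the end of Mars on the other strand, and without a statement on strand in the labels, reads there cannot be assigned to 1 of the genes. The authors' deposited q for Ddit3 was 0.61.

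Atf4 itself (chromosome 15, 80255184 to 80257541) was among the most abundant members, at 107 and 50.6 after PBS and 95.0 and 140 after SRBC. PBS library 1 lay above SRBC library 1, so the groups overlapped, and the gene was not called (log2 fold change 0.64 ± 0.26 SE, adjusted p = 0.086). Without PBS library 1 the log2 fold change was 1.17, and without PBS library 2 it was 0.11. Ppp1r15a, which encodes GADD34, the phosphatase subunit that reverses eIF2 phosphorylation, had 102 and 32.9 FPKM under PBS, against 69.4 and 74.7 under SRBC. Its SRBC libraries lay between the PBS libraries, and its log2 fold change of 0.30 ± 0.30 SE became 1.11 without PBS library 1 and -0.50 without PBS library 2.

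Slc3a2, Atf4 and Ppp1r15a were thus 2.65, 2.12 and 3.10 times as high in PBS library 1 as in PBS library 2. Over all tested loci above 0 in both, 3.08% were at least 2 times as high in PBS library 1 and 4.52% in PBS library 2. Atf5, a scarce member, went the other way, at 2.33 times as high in PBS library 2. The markers of neutrophil, erythroid, NK and plasmacytoid dendritic cells given above were higher in PBS library 1. These markers were also higher in SRBC library 2 than in SRBC library 1. Between those libraries Slc3a2, Atf4 and Ppp1r15a were 0.968, 1.48 and 1.08 times as high in SRBC library 2. The part of these markers in the values of Slc3a2, Atf4 and Ppp1r15a was not tested.

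Atf5, a relative of ATF4, was scarce and stood at 0.447 and 1.04 FPKM with PBS, then at 1.66 and 2.37 with SRBC. All SRBC values lay above all PBS values, and it was not called (log2 fold change 0.80 ± 0.30 SE, adjusted p = 0.059). Sesn2, an ATF4 target that restrains mTORC1, was at 26.3 and 18.7 FPKM in the PBS libraries and at 20.9 and 22.4 in the SRBC libraries, with no difference beyond the spread (log2 fold change -0.039 ± 0.23 SE, adjusted p = 0.93). Chac1, which degrades glutathione, and Trib3, a pseudokinase that feeds back on ATF4, are sensitive ATF4 targets in many cells and were close to absent. Chac1 had 0.664 and 0.249 FPKM under PBS, against 0.207 and 0.661 under SRBC, and Trib3 0.0872 and 0, then 0 and 0.0740. Their groups overlapped, and both genes, which held a match to the searched core, lay under the limit for testing.

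None of the 4 tested enzymes of amino acid and one-carbon synthesis was called by limma, and 0 had an unadjusted p under 0.05. With 4 genes this cannot be told from the 13.5% of all tested loci called higher and 6.2% lower. Asns, asparagine synthetase, whose promoter stretch is printed above, stood at 0.315 and 0.0560 FPKM with PBS, then at 0.120 and 0.437 with SRBC, under the limit for testing in every library. Phgdh and Psat1 catalyse the first steps of serine synthesis from a glycolytic intermediate. Phgdh measured 2.21 in each PBS library and 2.20 and 3.61 after SRBC, and Psat1 measured 5.77 and 6.75, then 4.73 and 6.88. Both overlapped between groups (adjusted p = 0.59 and 0.82). Shmt2 and Mthfd2, mitochondrial enzymes that pass carbon units from serine to folate, had log2 fold changes of 0.25 and -0.18 (adjusted p = 0.52 and 0.68). Shmt2 was at 9.76 and 10.2 FPKM in the PBS libraries and at 12.3 and 11.8 in the SRBC libraries, close together within each group, and Mthfd2 9.57 and 14.7, then 9.22 and 11.6.

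The 18 cytosolic tRNA synthetases, which attach each amino acid to its tRNA, were all tested, and 2 rose and 0 fell, or 11.1% higher beside the 13.5% of all loci. Limma gave 3 of 18 higher and 0 lower at an unadjusted p under 0.05, beside the 20.4% and 11.6% of all loci given above. The log2 fold change was above 0 for 16 of 18 as deposited, but for 10 with upper-quartile scaling, 11 with quantile normalization and 6 with TPM, and the median of 0.27 became 0.044, 0.095 and -0.13. Their mean FPKM after PBS ran from 2.54 for Cars to 36.2 for the locus shared by Qars and Qrich1. Qars, Nars (27.7) and Rars (25.0) were the most abundant of the 18 per length.

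Eprs, which joins glutamate and proline to their tRNAs in a single protein (chromosome 1, 185363044 to 185428360), had 11.8 and 11.7 FPKM under PBS, against 20.7 and 25.4 under SRBC. The groups did not overlap and the PBS libraries were almost equal. It rose 1.96-fold (mean 11.8 ± 0.104 with PBS and 23.0 ± 3.30 with SRBC; log2 fold change 0.91 ± 0.24 SE, adjusted p = 0.0057), with an authors' deposited q of 0.016. It was called in 14 of 17 alternatives, the exceptions being TPM (log2 fold change 0.51), no filter and leaving out SRBC library 2 (0.76, adjusted p = 0.19). Rars, the arginine enzyme (chromosome 11, 35808381 to 35834506), stood at 27.6 and 22.5 FPKM with PBS, then at 35.1 and 45.4 with SRBC, again without overlap. It rose 1.61-fold (log2 fold change 0.66 ± 0.23 SE, adjusted p = 0.039). That call disappeared on leaving out PBS library 2 or either SRBC library (adjusted p = 0.19, then 0.062 and 0.45) and with upper-quartile, quantile or TPM rescaling, where the log2 fold change was 0.42, 0.29 and 0.24, as also in the authors' deposited table (q of 0.12).

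Eprs and Rars both belong to the multisynthetase complex, a cytosolic assembly that also holds the synthetases of Kars, Dars, Qars, Iars, Lars and Mars; the genes were split by this complex after their values were seen. The complex's 8 genes had 2 called by limma (3 higher and 0 lower at an unadjusted p under 0.05) and a median log2 fold change of 0.44. The other 10 had 0 called by limma (0 at an unadjusted p under 0.05) and a median of 0.22. Over all tested loci 13.5% were called higher, and 20.4% were higher at the unadjusted limit. This difference was not tested. Kars, the lysine enzyme, was at 11.6 and 15.3 FPKM in the PBS libraries and at 17.7 and 24.0 in the SRBC libraries, without overlap, and was not called (log2 fold change 0.59 ± 0.24 SE, adjusted p = 0.085). Dars, the aspartate enzyme, measured 10.5 and 15.0, then 14.9 and 20.3 (log2 fold change 0.45), and the Qars locus 31.7 and 40.6, then 45.8 and 51.4 (0.42). Iars, Lars and Mars, for isoleucine, leucine and methionine, had log2 fold changes of 0.17, 0.18 and 0.057.

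Outside the complex, Aars, Gars, Tars and Yars, the enzymes for alanine, glycine, threonine and tyrosine, held a match to the searched core, as Iars did within it. The locus shared by Aars and Exosc6 had 10.2 and 6.69 FPKM under PBS, against 8.94 and 11.3 under SRBC, and Gars 9.06 and 9.85, then 10.3 and 11.6. Tars measured 7.25 and 9.87, then 10.04 and 13.9, and Yars 6.70 and 5.85, then 5.71 and 6.37. Gars and Tars did not overlap between groups and Aars and Yars did, and the log2 fold changes were 0.25 for Aars, 0.19 for Gars, 0.44 for Tars and -0.046 for Yars (adjusted p = 0.55, 0.64, 0.25 and 0.93). Of the remaining genes, Cars had a log2 fold change of 0.49 (adjusted p = 0.24), Nars of 0.32 and the locus shared by Hars and Dnd1 of 0.28. Sars, Wars and Vars had 0.14, 0.090 and -0.097, each smaller than its SE. These are the enzymes for cysteine, asparagine, histidine, serine, tryptophan and valine. Among them only Sars had a promoter window, which held no match, and the others were not searched.

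**Figure D3:**
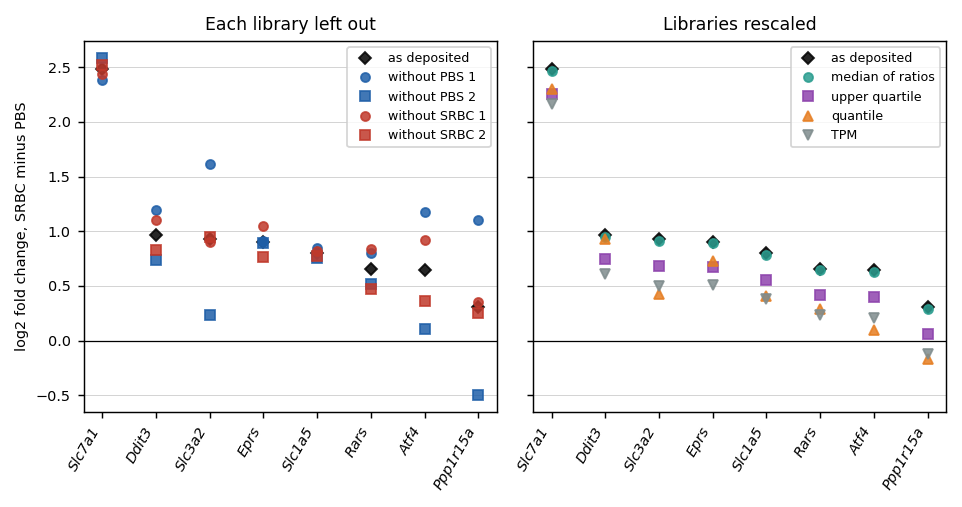
Log2 fold change, SRBC minus PBS, of the 6 called genes and of Atf4 and Ppp1r15a as deposited (black diamonds), with each library left out (left) and with libraries rescaled (right). Slc7a1 stays at or above 2.16 in every setting shown, while Slc3a2, Atf4 and Ppp1r15a move most when a PBS library is left out.

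Other genes of the pathway were taken from 5 lists. In the list of eIF2 and its control, 3 of 16 tested genes rose and 0 fell (0 lower also at an unadjusted p under 0.05 with limma). That is 18.8% higher, beside 13.5% of all tested loci higher and 6.2% lower (11.6% lower at the unadjusted limit). The 3 were the subunits of eIF2 itself, the factor that brings the initiator tRNA to the ribosome. Eif2s1, whose protein carries the regulated phosphorylation site, stood at 10.8 and 13.1 FPKM with PBS, then at 21.0 and 30.0 with SRBC (log2 fold change 1.02 ± 0.24 SE, adjusted p = 0.0025), without overlap, and it was not called with TPM or without SRBC library 2 (0.62 and 0.77). Eif2s2 measured 15.9 and 19.6, then 27.2 and 38.6 (0.84 ± 0.24 SE, adjusted p = 0.010), and was not called with quantile normalization or TPM or without PBS library 1 or SRBC library 2, where the log2 fold change was 0.55, 0.43, 0.70 and 0.60.

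Eif2s3x, the gamma subunit gene on the X chromosome, was at 22.0 and 28.0 FPKM in the PBS libraries and at 50.7 and 68.3 in the SRBC libraries (log2 fold change 1.21 ± 0.23 SE, adjusted p = 1.9e-04). Its Y-linked copy Eif2s3y, picked out once its values were known, had 31.4 and 38.4 FPKM under PBS, against 0.113 and 0.0547 under SRBC. Summed over both copies the level was 53.4 and 66.4 after PBS and 50.8 and 68.4 after SRBC, so the groups overlapped in the sum. The copies are near-identical and could share reads. The eIF2 kinase genes Eif2ak4 (GCN2, which senses uncharged tRNA), Eif2ak3 (PERK), Eif2ak1 (HRI, which senses heme) and Eif2ak2 (PKR) had log2 fold changes of -0.44, -0.42, -0.27 and 0.31 and were not called (adjusted p = 0.19, 0.22, 0.45 and 0.45). Impact, an inhibitor of GCN2, had 0.60 (adjusted p = 0.074). The list had 0 genes lower as deposited and 2, 3 and 4 lower with quantile, upper-quartile and TPM rescaling, where 8.44%, 12.9% and 15% of all loci were lower.

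Among 18 tested genes of other ATF4 pathway members, 2 rose and 3 fell. Over all tested loci 13.5% were higher and 6.2% lower. Gdf15, a secreted stress cytokine, stood at 1.17 and 1.56 FPKM with PBS, then at 7.33 and 6.18 with SRBC (log2 fold change 1.72 ± 0.28 SE, adjusted p = 2.8e-05), far apart between groups. Nupr1, a stress-induced chromatin protein, measured 0.567 and 2.50, then 3.87 and 4.28 (1.11 ± 0.32 SE, adjusted p = 0.012), and its log2 fold change was 0.53 without PBS library 1 (adjusted p = 0.22), with the call also lost without SRBC library 2 and under 3 of 4 rescalings. Sesn1, a relative of Sesn2 that FOXO and p53 control, fell from 19.3 and 26.3 to 7.35 and 8.50 (-1.40 ± 0.25 SE, adjusted p = 7.1e-05). Ddit4, an inhibitor of mTORC1, fell from 37.0 and 92.6, a wide gap between the PBS libraries, to 9.94 and 11.3 (-2.36 ± 0.28 SE, adjusted p = 1.1e-07), with a log2 fold change of -3.01 without PBS library 1 and -1.71 without PBS library 2.

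The third gene called lower, Atf3, is a stress-induced relative of ATF4 whose locus here also carries the name Fam71a. It was at 219 and 27.8 FPKM in the PBS libraries and at 32.2 and 24.9 in the SRBC libraries, so PBS library 1 stood apart from the other 3 libraries. Its log2 fold change of -1.44 became 0.028 without PBS library 1 and -2.91 without PBS library 2. The call was lost in 9 of 17 alternatives. PBS library 1 is also the library in which Ppp1r15a, Slc3a2 and Atf4 were higher than in PBS library 2. A second locus named Mthfd1l, a mitochondrial folate enzyme gene, was lower too (log2 fold change -1.15, adjusted p = 0.0046), at 3.18 and 4.90 with PBS, then 1.16 and 1.32 with SRBC. It is not in the count of 3, because a gene with several loci was represented by the locus with the highest mean over all 4 libraries. That locus stood at 3.84 and 3.87, then 4.21 and 5.66 (log2 fold change 0.28), so under PBS alone the loci were at similar levels and the choice rests on the SRBC libraries. Fgf21, Cbs and Cth, classical targets or enzymes of this response in liver, were at or under 0.125 FPKM in all libraries.

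Of 11 other amino acid transporters tested, 3 rose and 2 fell, beside 13.5% of all tested loci higher and 6.2% lower. Slc7a11, the cystine and glutamate exchanger that pairs with Slc3a2 and that both ATF4 and NRF2 are known to control, had 0.665 and 1.92 FPKM under PBS, against 14.5 and 17.9 under SRBC. The groups were far apart, and it rose 12.6-fold in mean FPKM (log2 fold change 2.96 ± 0.29 SE, adjusted p = 2.5e-09), a higher log2 fold change than that of any of the 32 tested members. Its promoter window holds the searched core in both orientations, and that of Nupr1 holds it as well, so both stretches are printed for comparison with those above.
Slc7a11 (chr3:50443627-50443705, minus strand): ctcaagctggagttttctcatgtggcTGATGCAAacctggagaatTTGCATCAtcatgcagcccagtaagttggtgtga
Nupr1 (chr7:126625547-126625606, minus strand): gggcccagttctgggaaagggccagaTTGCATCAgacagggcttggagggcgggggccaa
They are 2 of the 10 that held a match among 69 other pathway genes with a window. Of the other 8, Slc7a7 and Eif2s3x were called higher, Atf3 was called lower, Herpud1 was not called (log2 fold change 0.55), and Fgf21, Vldlr, Pycr1 and Slc1a4 were too low to test. Over all tested loci 13.5% were called higher and 6.2% lower. The Atf3 call rested on PBS library 1, and Eif2s3x did not separate the groups when summed with Eif2s3y, both as given above. Whether a match went with a call was not tested. Slc38a1, a glutamine importer, stood at 31.8 and 35.6 FPKM with PBS, then at 92.6 and 110 with SRBC (log2 fold change 1.56 ± 0.22 SE, adjusted p = 2.4e-06). Slc7a7, which with Slc3a2 exchanges cationic for neutral amino acids, measured 14.4 and 14.0, then 22.8 and 23.8 (0.67, adjusted p = 0.036). The groups did not overlap for either gene. The Slc7a7 call held in 7 of 17 alternatives and was lost when any 1 library was left out.

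Libraries of a group lay close together for both transporters that fell. Slc43a2, a facilitator of large neutral amino acids, went from 21.4 and 23.9 to 7.96 and 10.8 (log2 fold change -1.20 ± 0.24 SE, adjusted p = 4.3e-04). Slc36a1, a proton-coupled amino acid transporter of lysosomes and the cell surface, went from 5.22 and 6.31 to 1.999 and 2.58 (-1.04 ± 0.28 SE, adjusted p = 0.0074), and its call was lost without SRBC library 1 or SRBC library 2 (adjusted p = 0.14 and 0.051).

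The list of mitochondrial tRNA synthetases that have separate nuclear genes had 0 of 16 called by limma as deposited and a median log2 fold change of -0.078. Over all tested loci 13.5% were called higher and 6.2% lower. At an unadjusted p under 0.05 with limma, 0 of the 16 were higher and 3 lower, beside 20.4% and 11.6% of all tested loci. The 3 were Rars2 (7.98 and 9.60 after PBS, 5.05 and 5.07 after SRBC), Cars2 (12.0 and 11.7, then 7.57 and 7.24) and Nars2 (4.67 and 4.99, then 3.26 and 2.61). None of these overlapped between groups (adjusted p = 0.062, 0.083 and 0.15). With upper-quartile scaling 4 of the 16 were called lower, beside 12.9% of all loci. Yars2, the mitochondrial tyrosine enzyme, had the highest log2 fold change of the list, 0.52 (adjusted p = 0.19). Lars2 was listed at 1910 to 2676 FPKM, far above the other mitochondrial synthetases, and the origin of this level was not tested. Among the other cytosolic synthetases and scaffold proteins, 0 of 5 were called and 2 were higher at an unadjusted p under 0.05 with limma, Eef1e1 (4.31 and 6.84, then 7.50 and 11.6) and Farsa (9.25 and 9.23, then 14.2 and 13.3). The all-loci shares beside these counts are again 13.5% called higher and 20.4% higher at the unadjusted limit. Eef1e1 encodes a scaffold of the multisynthetase complex, and Farsa a subunit of the phenylalanine enzyme. The other subunit, Farsb, had a log2 fold change of 0.17, and the scaffold gene Aimp1 had 0.079.

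**Figure D4:**
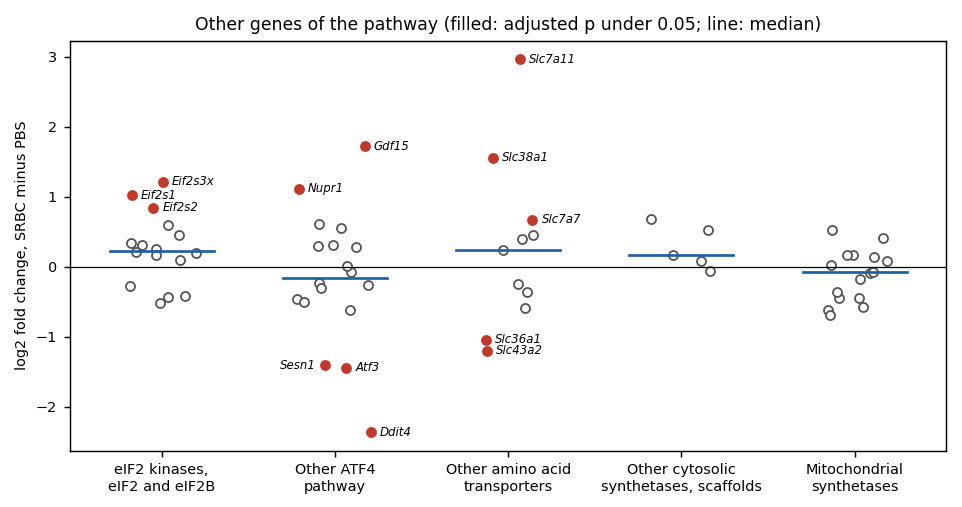
Log2 fold change, SRBC minus PBS, of the tested genes in 5 lists of other pathway genes, with filled points for limma adjusted p under 0.05 and a line at each median. Slc7a11 stands highest at 2.96 and Ddit4 lowest at -2.36, and none of the mitochondrial synthetases is filled.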

How the data were processed

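The authors' processed table held FPKM per Cufflinks locus for 4 libraries, and an authors' q-value per locus from their deposited comparison. CASAVA, TopHat2 2.0.8b, Cufflinks 2.1.1 and the mm10 build (GRCm38) are named, per the submitters' processing notes. For strand handling and sequencing depth, the sources used here give nothing. Of 30043 loci, 6386 without a gene name were left out, and 0 sample columns were left unused. Here log2(FPKM + 1) of named loci with an FPKM of at least 1 in at least 2 libraries was fitted with limma 3.58.1 (R 4.3.3, eBayes with a mean-variance trend), with Benjamini-Hochberg adjustment over 11020 loci; the script was tested on simulated data. FPKM are not counts, so no count test was run. With 2 libraries against 2, only 3 splits exist, so no permutation test can pass a threshold of 0.05. All members are named, with up to 4 genes of smallest p in each other list and every called one where 5 or fewer were called; further genes were chosen for their role or after their values were seen. The members and lists were chosen with earlier results of these data known. Alternatives changed the pseudocount, filter, scaling, variance model and libraries used; 2 of the 17 were chosen after seeing the data. Promoters are from RefSeq.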

Additional observations from a re-analysis of the deposited data

How the results depend on the processing

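Of 913 values of single genes recomputed under 17 alternatives, 747 kept their direction and side of the threshold, 77 lost a call, 38 gained one and 51 changed sign. Only 19 of the 54 genes were called as deposited, so only these could lose a call. Several alternatives changed the test alone and could not change a sign. Of 374 counts of called genes, 304 stayed within 1.5 times. A count of 0 that stayed at 0 is among these, as for the synthesis enzymes in every setting. Part of the 304 therefore says nothing of how firm the calls were. The lists are the members, with their regulators, synthesis enzymes, transporters and synthetases, and the other lists, called here eIF2 control, other ATF4 pathway, other transporters, other cytosolic synthetases and mitochondrial synthetases.

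With no filter, 83 loci were higher and 34 lower, and every list had 0 called by limma. The all-loci median shifted by -0.21 with upper-quartile scaling, -0.11 with quantile normalization and -0.40 with TPM, and the members' median exceeded it by 0.21, 0.16 and 0.21, beside 0.22 as deposited, 0.097 with the FPKM filter of 5 and 0.13 without PBS library 2. TPM gave 629 loci higher and 1648 lower, quantile normalization 922 higher and upper-quartile scaling 1417 lower. Members called higher were 1 with TPM, 2 with quantile normalization (and 1 lower) and 3 with upper-quartile scaling; regulators were 0 in all 3 by limma, transporters 1 with TPM and 1 higher and 1 lower with quantile normalization, and synthetases 0, 1 and 1. In eIF2 control 1 was higher with TPM and 4, 2 and 3 lower with TPM, quantile and upper-quartile scaling; in other ATF4 pathway 1 was higher in each and 5 lower with TPM; mitochondrial synthetases had 3, 2 and 4 lower, and 2 with median-of-ratios scaling.

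Signs changed with TPM for Ppp1r15a (-0.13), Phgdh (-0.072), Shmt2 (-0.16), Aars (-0.15), Gars (-0.22), Hars (-0.12), Iars (-0.25), Lars (-0.23), Mars (-0.36), Nars (-0.11), Qars (-0.0035), Sars (-0.26), Wars (-0.32), Farsb (-0.25) and Aimp1 (-0.34). They changed with quantile normalization for Ppp1r15a (-0.16), Iars (-0.00061), Mars (-0.013), Nars (-0.053), Qars (-0.013), Wars (-0.0046), Farsb (-0.089) and Aimp1 (-0.082). They changed with upper-quartile scaling for Gars (-0.034), Iars (-0.067), Lars (-0.049), Mars (-0.17), Sars (-0.080), Wars (-0.14), Farsb (-0.063) and Aimp1 (-0.15).

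Regulators called higher were 2 with an FPKM filter of 5 or with no mean-variance trend, and 3 with robust eBayes or with loci at 0 left out. Synthetases called were 1 with no trend and 1 with unnamed loci included. Other ATF4 genes higher were 1 with the filter of 5, with unnamed loci or with the replicate block. Other cytosolic synthetases had 1 higher with the filter of 5, robust eBayes or the block, and mitochondrial synthetases 1 lower with the filter of 5 or robust eBayes.

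Replicate numbers were not shown to pair libraries: same-numbered libraries deviated together with a correlation of 0.052 over 11020 loci. With the replicate block, 1684 loci were higher and 620 lower, and 6 members were higher, but not the same 6: Slc3a2 and Rars were not called (adjusted p = 0.072 and 0.053 with limma), and Slc7a5 and Kars were (0.040 and 0.039).

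Leaving out each library in turn gave 746 to 1641 loci higher and 273 to 993 lower, with 2 to 9 members, 0 to 3 regulators and 0 to 2 synthetases higher. The other lists had 1 to 3 higher in eIF2 control and in other ATF4 pathway, 1 to 3 lower among other transporters, 0 to 1 higher among other cytosolic synthetases and 0 to 1 lower among mitochondrial ones. Log2 fold changes ran from -0.34 to 0.12 for Psat1, -0.0068 to 0.52 for Phgdh, -0.13 to 0.25 for Mars, -0.066 to 0.35 for Sars, -0.27 to 0.20 for Sesn2, -0.50 to 1.11 for Ppp1r15a, -0.47 to 0.10 for Mthfd2 and -0.62 to 0.057 for Slc38a2. They ran from -0.018 to 0.53 for Aars, -0.00088 to 0.33 for Iars, -0.26 to 0.070 for Vars, -0.094 to 0.27 for Wars, -0.13 to 0.037 for Yars, -2.91 to 0.028 for Atf3, -0.11 to 0.45 for Farsb and -0.15 to 0.31 for Aimp1. The cause of these shifts was not tested. With 2 libraries a group and a median SE of 0.26, log2 differences of that size could not be told from the spread.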
